A study of Mus musculus with 23 samples.

Results

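The RNA levels of 32 genes of glycolysis, lactate handling and the pentose phosphate pathway were read in sorted T cells from mice given ovalbumin (OVA) in different forms. The genes are given by a list of 32 symbols, drawn up with earlier results of these data known and using no measured value in its rule. They were found on 33 of the 21900 rows of the table of estimated counts. Aldoa stands on a 2nd row that never exceeded 0.195 CPM, counts scaled to the library's total and its TMM factor, so the row of the main Aldoa gene was used and all 32 genes entered every test. The cells were OT-I cells, CD8 T cells, and OT-II cells, CD4 T cells, which each carry a transgenic receptor for a peptide of OVA. They were transferred into C57BL/6 mice. After 1 day the mice received 1 ug of A8B1-OVA, free OVA at its molar equivalent, free OVA at a higher dose, or saline. The cells were sorted from pooled spleen and lymph nodes 5 days after transfer, and the RNA of 3 mice was combined in each library. There were 3 libraries in each of 7 groups and 2 in the group of OT-II cells with higher-dose OVA, 23 libraries in all. The labels do not say what A8B1 is, and the series title speaks of erythrocyte targeting and of anergy, the unresponsiveness of T cells to their own antigen. The design compares antigen attached to A8B1 with the same antigen free and with no antigen, in each cell type. Each library is a pool, so the p-values measure only the spread between pools.

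Glycolysis turns glucose into pyruvate: transporters bring glucose in, hexokinase and phosphofructokinase commit it, aldolase splits it, and the triose steps then yield ATP and NADH. Pyruvate is either made into lactate, which leaves the cell through monocarboxylate transporters, or is broken down in the mitochondria by pyruvate dehydrogenase. Pyruvate dehydrogenase kinases hold that enzyme back. The pentose phosphate pathway branches off after hexokinase and makes NADPH and ribose for nucleotides. T cells that become activated and divide are known to raise glycolysis and lactate output, and the transcription factors Hif1a and Myc are known to drive many of these genes.

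The 7 T cell markers found in the table summed to 5304 to 6885 CPM in every library. The 2 CD8 markers summed to 2377 to 4133 CPM in OT-I and to 24.8 to 59.8 CPM in OT-II libraries, and the 2 CD4 markers to 621 to 782 CPM in OT-II. In OT-I the CD4 markers stayed at 2.02 to 18.5 CPM except for 198 CPM in replicate 1 of higher-dose OVA. Markers of other cells stood out in a few libraries. Replicate 2 of OT-I with molar-equivalent OVA had 642 CPM of B cell and 1142 CPM of myeloid markers, and the 1st saline replicates had 511 (OT-I) and 739 CPM (OT-II) of myeloid markers. OT-II saline replicate 1 also had 1175 CPM of erythroid markers, and replicate 3 of OT-II with molar-equivalent OVA had 233 CPM of B cell markers. The part of these markers in the results was not tested, and the counts of called genes without these 5 libraries are given with each comparison where the count changed. The A8B1-OVA libraries of OT-I cells had 114 to 142 CPM of B cell, 108 to 180 of myeloid and 110 to 257 of erythroid markers, against 74.4 to 163, 135 to 511 and 119 to 307 CPM after saline. In pooled cells, fewer cells of a type and less RNA per cell cannot be told apart.

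The DNA just before the start of a gene is where factors such as Hif1a and Myc are known to bind. The 250 bases before the start, from RefSeq on build GRCm38.p6, were found for 31 of the 32 genes, and 7 are shown here 5′ to 3′ on the gene's strand. They are 6 of the genes whose RNA changed after A8B1-OVA against saline, and Aldoa, whose RNA did not pass the test. No fixed rule picked these 6, and the motifs of the other changed genes are given after the sequences. Capitals mark ACGTG and GCGTG, the cores of the hypoxia response element, and CACGTG, the E-box, on either strand. Every CACGTG contains ACGTG on both strands. In the GENCODE M21 annotation of GRCm38, these genes lie at chr6:82725025-82774454 (Hk2, minus strand), chr6:124810586-124814296 (Tpi1, minus strand), chrX:106187100-106203699 (Pgk1, plus strand), chr19:41911923-41918660 (Pgam1, plus strand), chr7:46841475-46855627 (Ldha, plus strand), chr3:104638668-104658462 (Slc16a1, plus strand) and chr7:126795234-126800751 (Aldoa, minus strand).
Hk2 promoter, chr6:82774455-82774704, minus strand: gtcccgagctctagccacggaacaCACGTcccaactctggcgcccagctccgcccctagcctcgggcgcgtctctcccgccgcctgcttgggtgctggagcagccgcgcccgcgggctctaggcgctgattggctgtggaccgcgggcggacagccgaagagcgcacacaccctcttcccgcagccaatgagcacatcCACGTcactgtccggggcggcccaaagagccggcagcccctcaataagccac
Tpi1 promoter, chr6:124814159-124814408, minus strand: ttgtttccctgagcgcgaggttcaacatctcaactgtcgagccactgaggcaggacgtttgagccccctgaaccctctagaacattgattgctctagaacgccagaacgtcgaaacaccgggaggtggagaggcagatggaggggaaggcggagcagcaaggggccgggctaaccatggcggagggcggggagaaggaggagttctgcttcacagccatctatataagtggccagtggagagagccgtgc
Pgk1 promoter, chrX:106186850-106187099, plus strand: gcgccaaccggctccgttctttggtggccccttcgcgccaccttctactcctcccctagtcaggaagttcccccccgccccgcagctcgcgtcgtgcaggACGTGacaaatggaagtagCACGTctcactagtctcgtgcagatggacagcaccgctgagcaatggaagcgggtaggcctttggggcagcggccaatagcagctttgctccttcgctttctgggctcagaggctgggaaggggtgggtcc
Pgam1 promoter, chr19:41911621-41911870, plus strand: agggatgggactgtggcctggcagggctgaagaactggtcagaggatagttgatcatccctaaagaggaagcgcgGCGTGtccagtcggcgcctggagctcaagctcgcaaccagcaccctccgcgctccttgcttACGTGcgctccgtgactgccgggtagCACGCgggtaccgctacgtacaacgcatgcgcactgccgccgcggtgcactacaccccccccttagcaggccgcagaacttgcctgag
Ldha promoter, chr7:46845554-46845803, plus strand: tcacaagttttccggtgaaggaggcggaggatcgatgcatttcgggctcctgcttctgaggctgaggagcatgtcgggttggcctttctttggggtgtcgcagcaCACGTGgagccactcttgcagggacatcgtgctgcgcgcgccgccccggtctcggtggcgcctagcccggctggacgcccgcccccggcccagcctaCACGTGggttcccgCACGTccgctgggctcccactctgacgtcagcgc
Slc16a1 promoter, chr3:104638414-104638663, plus strand: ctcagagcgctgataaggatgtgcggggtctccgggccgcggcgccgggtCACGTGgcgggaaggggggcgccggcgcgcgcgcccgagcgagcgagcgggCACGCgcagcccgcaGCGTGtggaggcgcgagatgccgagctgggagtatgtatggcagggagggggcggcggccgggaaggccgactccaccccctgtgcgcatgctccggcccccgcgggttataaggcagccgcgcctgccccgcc
Aldoa promoter, chr7:126799179-126799428, minus strand: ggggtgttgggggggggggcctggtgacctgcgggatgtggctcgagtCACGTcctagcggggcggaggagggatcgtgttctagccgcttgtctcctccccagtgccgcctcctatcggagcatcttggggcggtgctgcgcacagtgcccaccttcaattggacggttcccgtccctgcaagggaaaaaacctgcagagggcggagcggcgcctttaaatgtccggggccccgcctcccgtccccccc

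The Hk2 and Pgk1 windows each held 2 ACGTG, the Pgam1 window held 1 ACGTG and 2 GCGTG, and the Ldha window held 2 CACGTG and a further ACGTG. The Slc16a1 window held 1 CACGTG and 2 GCGTG. The Tpi1 window held none of the 3 motifs, and the Aldoa window held 1 ACGTG. Each window precedes a start given by RefSeq, which can lie within the GENCODE span of the gene. By the spans above, the Ldha and Aldoa windows lie inside the gene and the Tpi1 window partly inside it. Ldha has 2 windows and Aldoa 3 in the table, of which the one with the lowest coordinates is shown, with its motifs known. The other Ldha window held 1 GCGTG and no other motif, and the other Aldoa windows held 1 ACGTG and none. Of the changed genes not shown, Gapdh, Gpi1, Pgd, Tkt and Pdk1 held no ACGTG and no CACGTG in any window. Pkm held 1 ACGTG in 1 of its windows. GCGTG was found for Gapdh, Pgd, Tkt and Pdk1 and not for Gpi1 or Pkm. Counting a gene once if any of its windows held the motif, ACGTG was found in 38.7% of the 31 genes and in 20.3% of the 16571 genes of the table with a window. CACGTG was found in 16.1% against 7.8% and GCGTG in 67.7% against 37.8%. A gene with more windows has more room for a motif, so the shares by window are given too. Of the 45 windows of these genes, 33.3% held ACGTG, against 18.0% of all 20206 windows. By window, CACGTG was found in 11.1% against 6.8% and GCGTG in 55.6% against 34.7%. The median GC content was 60.4% in the genes' windows and 56% in all windows. A match is a description of the letters and not a site of binding.

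Per kilobase of transcript, the only scale on which levels of different genes are set side by side here, the genes spanned a wide range of levels. After saline, Ldha, the lactate dehydrogenase subunit of glycolytic cells, was the highest in OT-I cells at 859 ± 32.5 CPM per kilobase (SD, n = 3). Eno1, the enolase, followed at 788 ± 66.3, Gapdh at 605 ± 41.1, Pkm, pyruvate kinase, at 458 ± 37.3 and Aldoa at 429 ± 27.3 CPM per kilobase. The SDs of Ldha and Eno1 overlapped, as did those of Pkm and Aldoa. Within each of these saline libraries, however, Ldha lay above Eno1 and Pkm above Aldoa, and the order was not tested. In OT-II cells the same 5 genes led, with Eno1 at 719 ± 97.3 and Ldha at 719 ± 55.5 CPM per kilobase. At the low end stood Hk2, the inducible hexokinase, at 0.708 ± 0.0543 CPM per kilobase in OT-I and 0.262 ± 0.179 in OT-II cells, far under Hk1, the hexokinase of most tissues, at 69.4 ± 3.76 and 70.6 ± 11.4. Aldoc, the brain aldolase, Slc16a3, a lactate exporter, and Rpia, ribose phosphate isomerase, were also under 3 CPM per kilobase in both cell types. Levels below are in CPM, each gene against itself.

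After A8B1-OVA, OT-I cells had more RNA for 10 of the 32 genes than after saline, and for none less. Of all 14080 genes tested in OT-I cells, 11.5% changed in this comparison and 7.07% were higher. Of the 6 enzymes from triose phosphate to pyruvate, 5 rose. The median log2 fold change was 0.84 for those 6 genes and 0.26 for all 32, against -0.02 for all genes tested. By step, 0 of 2 glucose transporters, 2 of 8 genes from hexokinase to aldolase, 1 of 4 lactate genes, 0 of 5 regulators and 2 of 7 pentose phosphate genes rose.

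**Figure D1:**
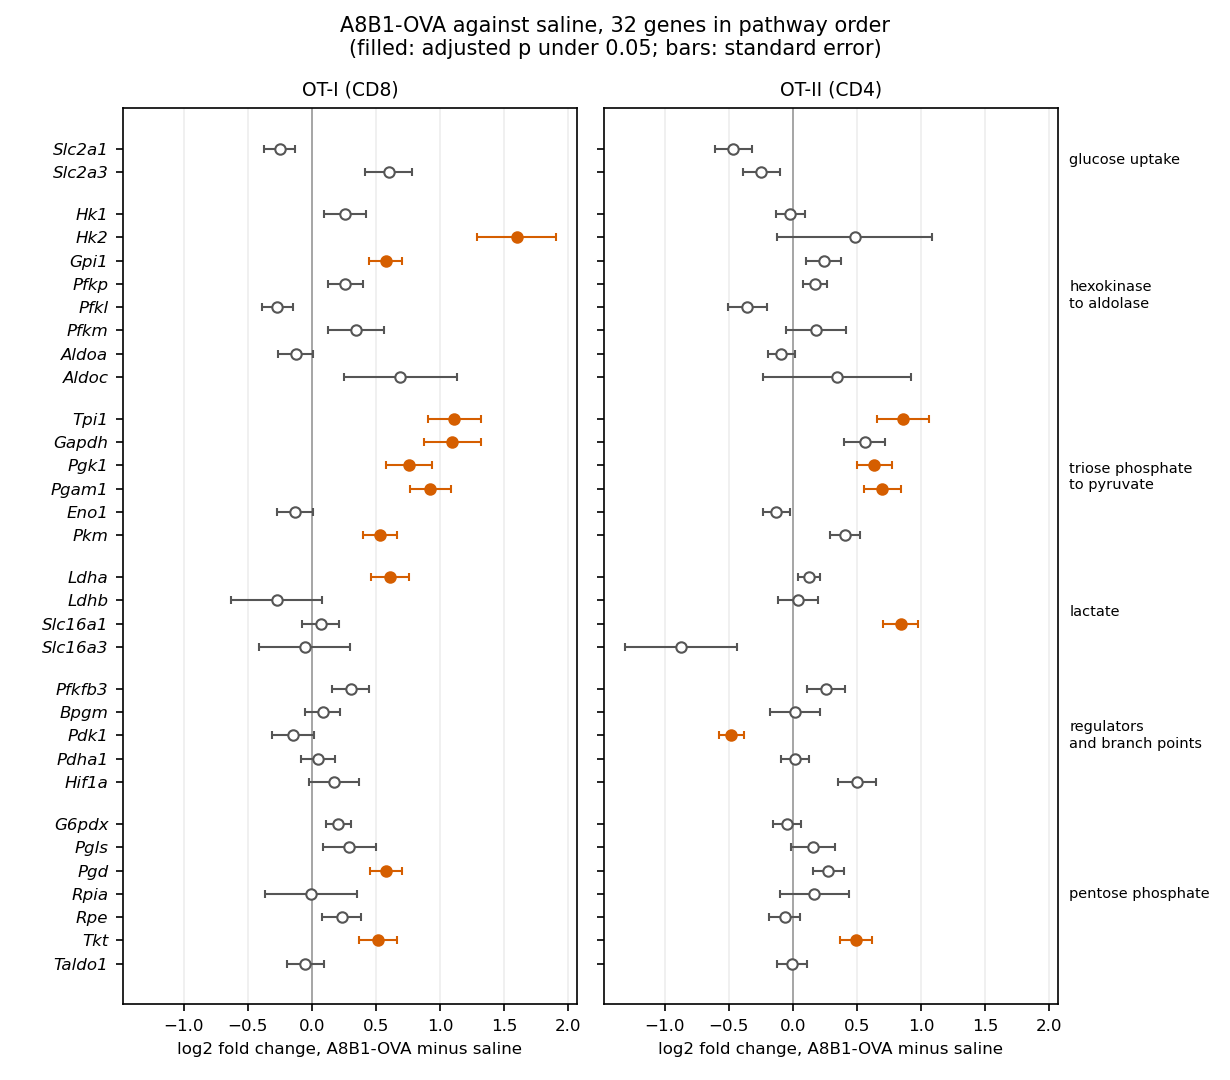
Log2 fold change of each of the 32 genes after A8B1-OVA against saline in OT-I (left) and OT-II cells (right), with bars for the standard error and filled points where the adjusted p was under 0.05. In OT-I cells 10 points are filled, all to the right of 0, and in OT-II cells 5 to the right and 1, Pdk1, to the left.

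Hk2, which traps glucose in the cell as glucose 6-phosphate, had the highest fold change. Its level was 9.75, 10.9 and 6.29 CPM in the A8B1-OVA libraries of OT-I cells, replicates 1 to 3, and 2.87, 3.19 and 2.76 CPM in the saline libraries. Every A8B1-OVA library stood above all 9 other OT-I libraries, whose highest was 3.81 CPM. Hk2 rose 3.02-fold, with a log2 fold change of 1.60 ± 0.31 (standard error, adjusted p = 0.0054). Gpi1, which turns glucose 6-phosphate into fructose 6-phosphate, was at 416, 436 and 351 CPM after A8B1-OVA and at 272, 278 and 251 CPM after saline. The groups did not overlap, and the log2 fold change was 0.57 ± 0.13 (adjusted p = 0.013). Groups of 3 libraries can lie apart by chance, and the share of all genes that did so was not counted. Lack of overlap is therefore a description throughout and not a call. The other genes of the upper part did not pass the test. Hk1 (0.26, adjusted p = 0.34), the phosphofructokinase genes Pfkp (0.26, 0.25), Pfkm (0.34, 0.35) and Pfkl (-0.27, 0.18), Aldoa (-0.13, 0.59) and Aldoc (0.69 ± 0.44, 0.35) are given by their log2 fold change and adjusted p. Aldoa, which splits fructose bisphosphate, was at 700, 597 and 497 CPM after A8B1-OVA and at 679, 601 and 664 CPM after saline, which overlap.

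The next step is catalysed by Tpi1, triose phosphate isomerase. Its level was 255, 278 and 140 CPM after A8B1-OVA and 111, 95.2 and 103 CPM after saline in OT-I cells. All 3 A8B1-OVA libraries were above the highest other OT-I library, at 127 CPM, with replicate 3 the lowest of them. The log2 fold change was 1.11 ± 0.21 (adjusted p = 0.0041), or 2.16-fold. Gapdh, which makes NADH at the oxidation step, was at 1823, 2111 and 1047 CPM after A8B1-OVA and at 820, 775 and 716 CPM after saline. Replicate 3 again lay nearest to the saline libraries, and replicate 3 of molar-equivalent OVA reached 1103 CPM. Gapdh rose by 1.10 ± 0.23 on the log2 scale (adjusted p = 0.0077), or 2.14-fold. Of its 31-base words, 56.3% occur in other genes of the table, such as Gm10358, which had at most 0.638 CPM in a library. Other called genes share words with transcripts outside the table, among them Pgk1 with 68.3%, Pgam1 with 42.1%, Pkm with 34.8%, Gpi1 with 31.4%, Ldha with 22.3% and Tpi1 with 16.6% shared with any other transcript, and how reads of such words were assigned there was not tested.

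Pgk1, which yields the first ATP, was at 293, 396 and 222 CPM after A8B1-OVA and at 176, 177 and 182 CPM after saline in OT-I cells. The groups did not overlap, and its log2 fold change was 0.76 ± 0.18 (adjusted p = 0.018). Pgam1, phosphoglycerate mutase, was at 376, 421 and 283 CPM against 195, 188 and 183 CPM, without overlap with any of the other 9 OT-I libraries (highest 239 CPM). It had the lowest adjusted p of the 32 genes in this comparison, with a log2 fold change of 0.92 ± 0.16 (adjusted p = 0.0026). Eno1, the next enzyme, was the exception in this part of the pathway. It was at 1587, 1496 and 1182 CPM after A8B1-OVA and at 1638, 1399 and 1608 CPM after saline, which overlap, with a log2 fold change of -0.13 ± 0.14 (adjusted p = 0.58). Eno1 shares 52.3% of its words with other genes of the table, chiefly Eno1b, which was at 5.77 ± 0.616 CPM after A8B1-OVA and 6.27 ± 0.123 CPM after saline (SD, n = 3). Pkm, which forms pyruvate and ATP, was at 1550, 1701 and 1213 CPM against 1081, 928 and 1062 CPM. The groups did not overlap, and Pkm rose by 0.53 ± 0.13 on the log2 scale (adjusted p = 0.022).

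Ldha, which turns pyruvate into lactate, was at 2206, 2393 and 1681 CPM after A8B1-OVA and at 1413, 1310 and 1369 CPM after saline in OT-I cells. All A8B1-OVA libraries were above the other OT-I libraries, of which the highest held 1569 CPM, and the log2 fold change was 0.61 ± 0.15 (adjusted p = 0.019). The lactate transporters Slc16a1 (0.07 ± 0.14, adjusted p = 0.81) and Slc16a3 (-0.06 ± 0.35, adjusted p = 0.94) and Ldhb (-0.28 ± 0.36, adjusted p = 0.67) did not pass the test. In the pentose phosphate pathway, Pgd, the 2nd enzyme that makes NADPH, was at 142, 145 and 120 CPM against 91.3, 95.6 and 83.4 CPM. Pgd was above all other OT-I libraries (highest 106 CPM) and rose by 0.58 ± 0.13 on the log2 scale (adjusted p = 0.011). Tkt, the transketolase that links the pathway back to glycolysis, was at 364, 413 and 259 CPM against 242, 222 and 254 CPM. Its replicate 3 was only just above the highest saline library, and the log2 fold change was 0.52 ± 0.15 (adjusted p = 0.041). G6pdx, which opens the pathway, had a log2 fold change of 0.21 ± 0.10 (adjusted p = 0.21), and Pgls, Rpia, Rpe and Taldo1 had values from -0.05 to 0.29, none called.

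The glucose transporters had fold changes of opposite sign in OT-I cells, and neither passed the test. Slc2a3, a high-affinity transporter, was at 116, 127 and 160 CPM after A8B1-OVA and at 98.1, 77.1 and 88.9 CPM after saline, with a log2 fold change of 0.60 ± 0.18 (adjusted p = 0.052). Its groups did not overlap. Slc2a1, the most widely expressed transporter, was at 75.3, 64.8 and 64.2 CPM after A8B1-OVA and at 77.6, 80.9 and 83.0 CPM after saline (-0.25 ± 0.12, adjusted p = 0.20). Among the regulators, Pfkfb3, which makes the activator of phosphofructokinase, had a log2 fold change of 0.30 ± 0.14 (adjusted p = 0.21) and Hif1a 0.17 ± 0.20 (adjusted p = 0.61). Pdk1, a kinase that holds back pyruvate dehydrogenase, Pdha1, a subunit of that enzyme, and Bpgm, which makes bisphosphoglycerate, lay between -0.15 and 0.09.

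**Figure D2:**
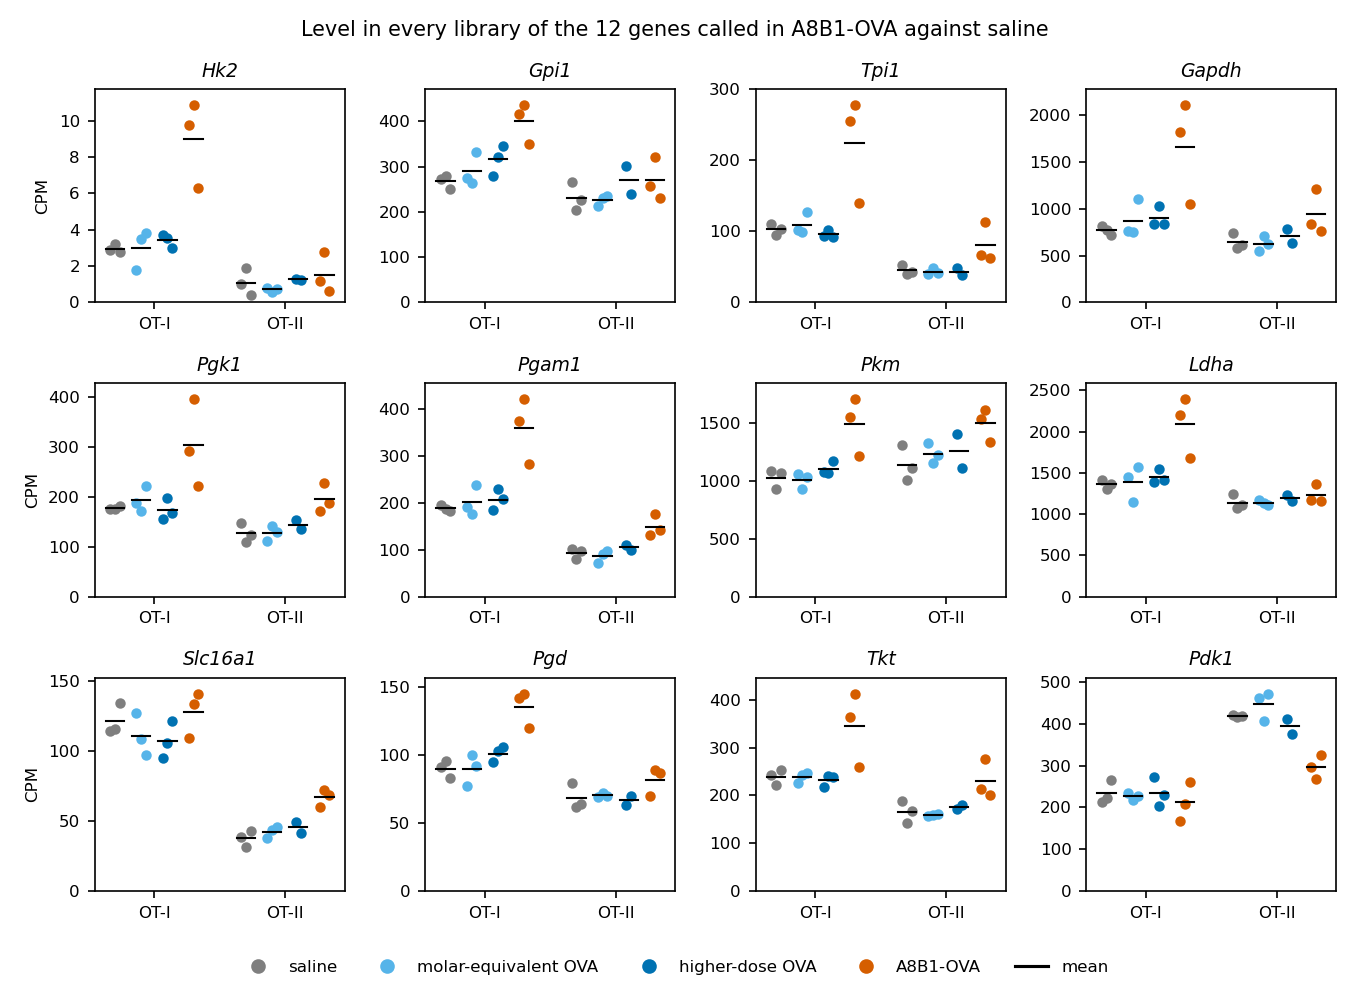
Level in CPM of the 12 genes called after A8B1-OVA against saline in OT-I or OT-II cells, with 1 point per library, the axis from 0 and a line for the group mean. For Hk2, Gpi1, Tpi1, Pgam1, Pkm, Ldha, Pgd and Tkt all 3 OT-I libraries with A8B1-OVA lie above every other OT-I library, for Gpi1, Pkm and Tkt only just. In OT-II cells the same holds for Tpi1, Pgk1, Pgam1, Slc16a1 and Tkt. For Pdk1 all 3 OT-II libraries with A8B1-OVA lie under every other OT-II library.

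Not all of these calls were equally stable when a library was left out. Hk2, Tpi1, Pgam1 and Gapdh passed the test under all 15 alternatives tried, the highest adjusted p being 0.034, 0.028, 0.019 and 0.044. Pgd and Gpi1 were lost without A8B1-OVA replicate 2 (adjusted p = 0.055 and 0.064) and without saline replicate 3 (0.063 and 0.075). The other 4 calls were weaker under such omissions. Pgk1 was lost without A8B1-OVA replicate 2 (0.086) or any 1 saline replicate (0.062 to 0.064), and Ldha was kept only without A8B1-OVA replicate 3 (0.0032), with 0.054 to 0.084 otherwise. Pkm and Tkt too were kept only without A8B1-OVA replicate 3 (0.003 and 0.002), with 0.053 to 0.096 and 0.096 to 0.19 otherwise. Leaving out A8B1-OVA replicate 2 or saline replicate 3 gave 4 calls, and leaving out saline replicate 1 or 2 gave 6. Without the libraries with raised markers 7 of the 10 genes were called, without Pgk1 (adjusted p = 0.076), Pkm (0.068) and Tkt (0.14).

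Replicate 3 of OT-I with A8B1-OVA was the lowest of the A8B1-OVA replicates in each of the measures that follow. In the cell cycle sum, however, replicate 2 lay farthest from the others. The sum of the 32 genes was 11955, 12701 and 9414 CPM in A8B1-OVA replicates 1 to 3, and 8869, 8076 and 8761 CPM after saline. A reference list of 12 cell cycle genes summed to 1698, 2749 and 1156 CPM after A8B1-OVA and to 549, 562 and 499 CPM after saline. Replicate 2 of A8B1-OVA was highest in both sums, but the order did not hold throughout: replicate 3 of molar-equivalent OVA had 9540 CPM of the 32 genes at a cell cycle sum of 592 CPM, above the 9414 CPM of A8B1-OVA replicate 3. The share of counts in the 3063 genes with transcripts under 1000 bases was 17.1%, 15.3% and 11% in A8B1-OVA replicates 1 to 3. It was 13.7%, 13.2% and 11.6% after saline and 11.98%, 13.27% and 16.78% after molar-equivalent OVA. The molar-equivalent library with 9540 CPM of the 32 genes, replicate 3, was thus the one with a share of 16.78%. The part of the cell cycle and of this share in the sums was not tested. With the short-transcript share as a covariate, an alternative added after the data were seen, 11 genes were called in OT-I cells: 9 of the 10, without Tkt, and Slc2a3 and Hif1a in addition.

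**Figure D3:**
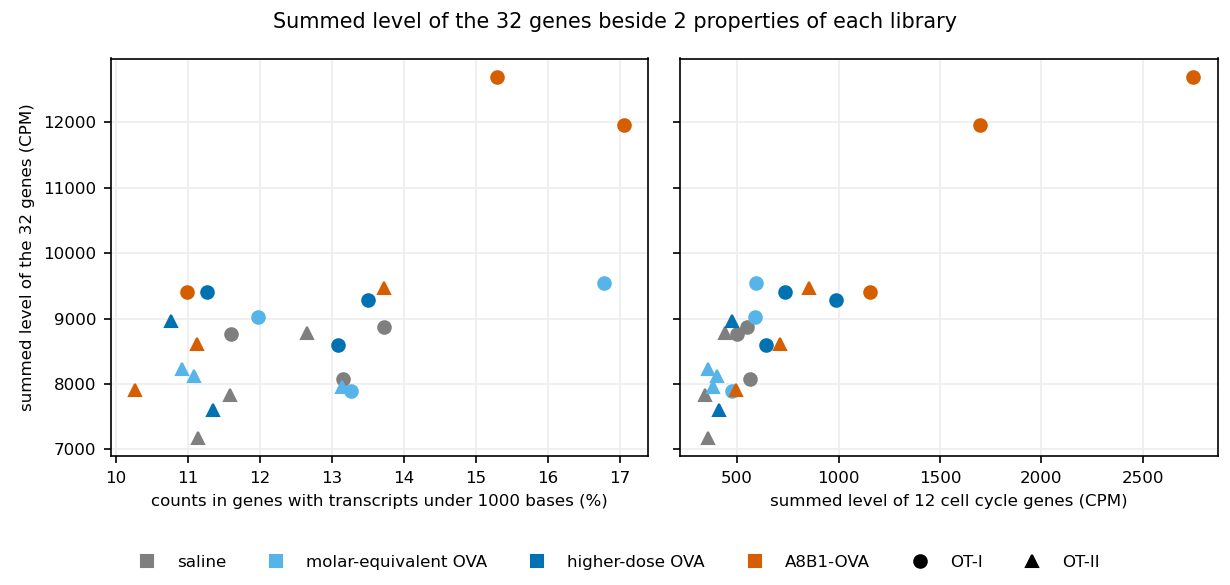
Summed level of the 32 genes in CPM in each library against the share of counts in genes with transcripts under 1000 bases (left, %) and against the sum of 12 cell cycle genes (right, CPM). Circles are OT-I and triangles OT-II libraries, coloured by treatment, and OT-I A8B1-OVA replicates 1 and 2 are the highest on the vertical axis, at 11955 and 12701 CPM.

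Free OVA at the molar equivalent of A8B1-OVA gave no call among the 32 genes against saline in OT-I cells, where 0% of all genes were called. At an unadjusted p under 0.05 there were 0 of the 32 genes as well, and DESeq2 also called 0. The comparison of A8B1-OVA with molar-equivalent OVA shares its A8B1-OVA libraries with the comparison with saline, so the values stand side by side and do not count as separate support. In it, 11 genes were higher and none lower, with 10.6% of all genes called, 6.56% higher and 4.06% lower, and a median of 0.21 over the 32 genes against -0.02 over all. The 11 genes were the 10 called against saline and Slc2a3 (0.62 ± 0.18, adjusted p = 0.048). Hk2 had a log2 fold change of 1.57, Tpi1 1.03, Gapdh 0.92 and Pgam1 0.82. Without the libraries with raised markers of other cells 5 of the 32 genes were called, without A8B1-OVA replicate 1 or 2 there were 4 and 3, and without replicate 1 or 2 of molar-equivalent OVA 5 and 6.

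Against higher-dose OVA, 4 of the 32 genes were higher after A8B1-OVA in OT-I cells and none lower, with 2.41% of all genes called and 1.63% higher. The median log2 fold change was 0.07 over the 32 genes and -0.02 over all. Tpi1 (1.20 ± 0.21, adjusted p = 0.014), Pgam1 (0.77 ± 0.16, 0.029), Hk2 (1.35 ± 0.31, 0.042) and Pgk1 (0.77 ± 0.18, 0.047) passed the test. Their levels after higher-dose OVA were 92.1 to 101 CPM for Tpi1, 184 to 229 CPM for Pgam1, 3.01 to 3.71 CPM for Hk2 and 156 to 197 CPM for Pgk1, all below the A8B1-OVA libraries. The count was 0 without the libraries with raised markers, without A8B1-OVA replicate 2 and without replicate 1 or 3 of higher-dose OVA, 1 without A8B1-OVA replicate 1 or higher-dose replicate 2, and 10 without A8B1-OVA replicate 3.

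Higher-dose OVA itself changed 1 of the 32 genes against saline in OT-I cells, where 2.41% of all genes were called and 1.97% were higher. The median of the 32 genes was 0.12 and that of all genes was 0.00 to 2 decimals. The gene was Pfkp, the platelet-type phosphofructokinase, which catalyses the committed step. Pfkp was at 353, 454 and 447 CPM after higher-dose OVA, at 309, 311 and 367 CPM after A8B1-OVA and at 267, 248 and 304 CPM after saline. Both antigen groups lay above saline without overlap, though Pfkp did not pass the test after A8B1-OVA. The log2 fold change with higher-dose OVA was 0.64 ± 0.14 (adjusted p = 0.03), lost without any 1 of the saline replicates (0.075 to 0.16) or without replicate 2 or 3 of higher-dose OVA (0.17 and 0.12). Without the libraries with raised markers the call was lost as well. The 12 NK cell markers, several of which effector CD8 T cells also express, summed to 1586, 2664 and 2086 CPM after higher-dose OVA and to 1625, 1468 and 1493 CPM after saline, and their part in the level of Pfkp was not tested. Slc2a3 stood at 106, 132 and 167 CPM after higher-dose OVA (0.64 ± 0.18, adjusted p = 0.10), and Pfkfb3 at 24.5, 25.1 and 26.7 CPM against 16.3, 20.1 and 18.2 CPM after saline (0.50 ± 0.15, 0.11). Neither gene's libraries overlapped with saline, which is a description, and neither gene passed the test. For higher-dose against molar-equivalent OVA edgeR called 0 of the 32 genes, with 1.04% of all genes called, 3 of the 32 at an unadjusted p under 0.05 and 3 called by DESeq2.

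In OT-II cells A8B1-OVA changed 6 of the 32 genes against saline, 5 higher and 1 lower. Of the 14757 genes tested, 7.28% were called, 4.4% higher and 2.88% lower. The median log2 fold change was 0.16 over the 32 genes and -0.01 over all genes. As in the list for OT-I cells, the 6 enzymes from triose phosphate to pyruvate held the most calls, with 3 higher and a median of 0.60, and Tkt was the pentose phosphate gene called. The other calls were a lactate transporter and a mitochondrial kinase that were not called in OT-I cells.

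Slc16a1, the monocarboxylate transporter that carries lactate and pyruvate across the plasma membrane, had the lowest adjusted p among these genes in OT-II cells. Its level was 60.2, 72 and 68.7 CPM after A8B1-OVA and 38.7, 31.6 and 43.1 CPM after saline. The A8B1-OVA libraries were above all 8 other OT-II libraries, whose highest was 49.2 CPM, and the log2 fold change was 0.84 ± 0.13 (adjusted p = 0.003), or 1.79-fold. Pdk1, which holds back pyruvate dehydrogenase by phosphorylating it, was at 296, 269 and 326 CPM after A8B1-OVA and at 421, 415 and 419 CPM after saline. The A8B1-OVA libraries were below all 8 others, whose lowest was 375 CPM. Pdk1 fell by 0.48 on the log2 scale (standard error 0.10, adjusted p = 0.01), to 0.717 of its saline level. Both calls held under all 15 alternatives tried, with adjusted p up to 0.017 for Slc16a1 and 0.041 for Pdk1.

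The 3 triose-phase genes that rose in OT-II cells were Pgam1, Tpi1 and Pgk1. Pgam1 was at 131, 176 and 142 CPM after A8B1-OVA and at 102, 79.8 and 98.0 CPM after saline, without overlap (0.70 ± 0.14, adjusted p = 0.012). It was lost without saline replicate 2, with an adjusted p of 0.051. Tpi1 was at 66.9, 113 and 62.4 CPM against 52.8, 40.1 and 42.5 CPM (0.86 ± 0.20, adjusted p = 0.024). Its replicate 2 was far above the other A8B1-OVA libraries, and without it the log2 fold change was 0.54 (adjusted p = 0.065). Without saline replicate 2 or 3 the adjusted p was 0.091 and 0.092. Pgk1 was at 172, 227 and 188 CPM against 149, 109 and 125 CPM, without overlap (0.64 ± 0.14, adjusted p = 0.016), and was lost without A8B1-OVA replicate 2 (0.059), saline replicate 2 (0.065) or saline replicate 3 (0.063). Tkt was at 214, 276 and 201 CPM against 188, 141 and 167 CPM (0.49 ± 0.13, adjusted p = 0.036). It was the least stable of the 6, with an adjusted p of 0.059 and 0.11 without A8B1-OVA replicate 1 or 2 and of 0.13 and 0.098 without saline replicate 2 or 3. Without saline replicate 3, 3 of the 32 genes were called in OT-II cells. Without the libraries with raised markers there were 7 calls, the 6 and Pkm (adjusted p = 0.049).

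A further 4 genes came near the threshold in OT-II cells and were called by DESeq2 but not by edgeR. Gapdh was at 840.5, 1211 and 768 CPM after A8B1-OVA and at 738, 583 and 615 CPM after saline (0.56 ± 0.16, adjusted p = 0.062 by edgeR and 0.015 by DESeq2). Pkm was at 1533, 1611 and 1333 CPM against 1305, 1002 and 1109 CPM (0.41 ± 0.11, 0.052 and 0.018). Hif1a, the oxygen-regulated transcription factor, was at 216, 155 and 199 CPM against 133, 156 and 117 CPM (0.50 ± 0.15, 0.063 and 0.014), and its groups overlapped. Slc2a1 was at 58.9, 54.7 and 47.1 CPM against 80.1, 61.4 and 82.5 CPM (-0.46 ± 0.15, 0.078 and 0.029), without overlap. Ldha, which with Eno1 led the levels per kilobase, was at 1170, 1368 and 1159 CPM against 1240, 1070 and 1113 CPM (0.13 ± 0.08, adjusted p = 0.44). Hk2 was low in every OT-II library, from 0.627 to 2.78 CPM after A8B1-OVA and from 0.407 to 1.88 CPM after saline (0.48 ± 0.60, adjusted p = 0.73). The cell cycle reference genes summed to 712, 853 and 497 CPM after A8B1-OVA and to 442, 357 and 341 CPM after saline in OT-II cells, and the 32 genes to 8607, 9466 and 7904 CPM and to 8779, 7170 and 7826 CPM.

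Against molar-equivalent OVA, which shares the A8B1-OVA libraries with the comparison with saline, 7 genes were called in OT-II cells, 6 higher and 1 lower, with 6.36% of all genes called, 3.94% higher and 2.43% lower. The median was 0.16 over the 32 genes and 0.00 over all to 2 decimals. They were the same 6 genes as against saline, with log2 fold changes of 0.92 for Tpi1, 0.79 for Pgam1, 0.67 for Slc16a1, 0.63 for Pgk1, 0.55 for Tkt and -0.58 for Pdk1, and Pfkfb3 in addition. Pfkfb3 was at 28.3, 39.9 and 33.1 CPM after A8B1-OVA and at 21.8, 21.6 and 25.8 CPM after molar-equivalent OVA, without overlap (0.56 ± 0.15, adjusted p = 0.047). Without the libraries with raised markers 4 genes were called, as without A8B1-OVA replicate 2, and without replicate 1 or 3 of molar-equivalent OVA there were 2 and 3. Against higher-dose OVA, with its 2 libraries, edgeR called 0 of the 32 genes, with 1.34% of all genes called, 8 of the 32 at an unadjusted p under 0.05, and DESeq2 called 3. Those 3 were Tpi1 (0.91 ± 0.23 and adjusted p = 0.09 by edgeR), Slc16a1 (0.58 ± 0.15, 0.099) and Pdk1 (-0.39 ± 0.11, 0.11).

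Free OVA gave no call among the 32 genes in OT-II cells by edgeR or DESeq2. With higher-dose OVA against saline 0.0271% of all genes were called, 0.0203% higher and 0.00678% lower, and 1 of the 32 was at an unadjusted p under 0.05. With molar-equivalent OVA against saline, and with higher-dose against molar-equivalent OVA, 0% were called and 0 of the 32 were at an unadjusted p under 0.05.

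Whether the responses differed between the cell types was tested as the difference of the fold changes in a fit of all 23 libraries. For A8B1-OVA against saline, 0.433% of the 15235 genes were called and 0 of the 32 by edgeR, with 3 of the 32 at an unadjusted p under 0.05. DESeq2 called 1, Slc16a1, at -0.74 (adjusted p = 0.029). By edgeR the response of Slc16a1 was lower in OT-I by 0.75 ± 0.20 on the log2 scale (adjusted p = 0.13), that of Slc2a3 higher by 0.87 ± 0.25 (adjusted p = 0.17) and that of Ldha higher by 0.51 ± 0.17 (adjusted p = 0.29). So the calls of Hk2, Gapdh, Ldha, Pkm, Gpi1 and Pgd in OT-I alone, and of Slc16a1 and Pdk1 in OT-II alone, were not shown by edgeR to differ between the cell types. For higher-dose and molar-equivalent OVA against saline, 0.00656% and 0% of all genes were called and 0 of the 32, with 3 and 0 of the 32 at an unadjusted p under 0.05, and none by DESeq2.

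The levels themselves differed between OT-I and OT-II cells, with cell type, receptor and sort gate not separable. After saline, 14 of the 32 genes were called, 8 higher and 6 lower in OT-I, with 15.5% of all genes called, 8.36% higher and 7.11% lower, and medians of 0.17 over the 32 genes and -0.02 over all. After A8B1-OVA 17 were called, 14 higher and 3 lower, with medians of 0.44 and 0.00. Of all genes 20.6% were called there, 12.2% higher and 8.34% lower. After molar-equivalent OVA the counts were 8 higher and 2 lower (16% of all genes, 8.91% higher and 7.06% lower). After higher-dose OVA they were 6 higher and 3 lower (10.1%, 5.52% higher and 4.55% lower). Of the 32 genes, 6 were called under all 4 treatments: Slc16a1, Pgam1, Tpi1 and Slc2a3 higher in OT-I, and Ldhb and Pdk1 higher in OT-II.

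Ldhb, the lactate dehydrogenase subunit of oxidative tissues, had the widest gap. Its level was 7.94 to 23.8 CPM over the 12 OT-I libraries, with a median of 13.8 CPM in the 9 without A8B1-OVA, and 70.1 to 105 CPM over the 11 OT-II libraries. The ranges did not overlap. The difference, OT-I minus OT-II, was -2.39 ± 0.31 on the log2 scale after saline (adjusted p = 1.4e-05) and -2.67 ± 0.31 after A8B1-OVA (5.4e-06). Slc16a1 was higher in OT-I by 1.69 ± 0.14 after saline (adjusted p = 5.9e-08) and by 0.94 ± 0.14 after A8B1-OVA (9.4e-05). Pdk1 was lower in OT-I, by 0.84 ± 0.14 after saline (adjusted p = 0.00019) and by 0.48 ± 0.14 after A8B1-OVA (0.016). Pgam1 was higher by 1.02 ± 0.16 after saline and 1.27 ± 0.16 after A8B1-OVA, and Tpi1 by 1.19 ± 0.22 and 1.47 ± 0.22. After saline, Pfkp, Tkt, Pgd and Hk2 were also higher in OT-I (0.45, 0.53, 0.40 and 1.42) and Pfkfb3, Bpgm, Pfkl and Pfkm higher in OT-II (-0.64, -0.54, -0.45 and -0.68). Hk2 and Pfkm only just passed, with adjusted p of 0.0495 and 0.0498. The count of 14 was 8 without OT-I saline replicate 1 or 3 or OT-II saline replicate 3, and 9 without OT-I saline replicate 2. Without the libraries with raised markers there were 10 calls after saline in place of 14, 8 after molar-equivalent OVA in place of 10, 10 after higher-dose OVA in place of 9 and 17 after A8B1-OVA as before.

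After A8B1-OVA the OT-I excess took in more of the pathway. Slc2a3 was at 116, 127 and 160 CPM in OT-I and at 53.1, 47.8 and 40.6 CPM in OT-II libraries, a difference of 1.51 ± 0.18 (adjusted p = 5.6e-06). Ldha differed by 0.76 ± 0.12 (adjusted p = 0.00019) and Hk2 by 2.56 ± 0.49 (0.00097). Ldha, Gapdh (0.82), Pgk1 (0.63), Gpi1 (0.57), G6pdx (0.52) and Rpe (0.44), a ribulose phosphate epimerase, were called here and not after saline. That list of additional calls is not a test of the change, which is the difference of responses given above.

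**Figure D4:**
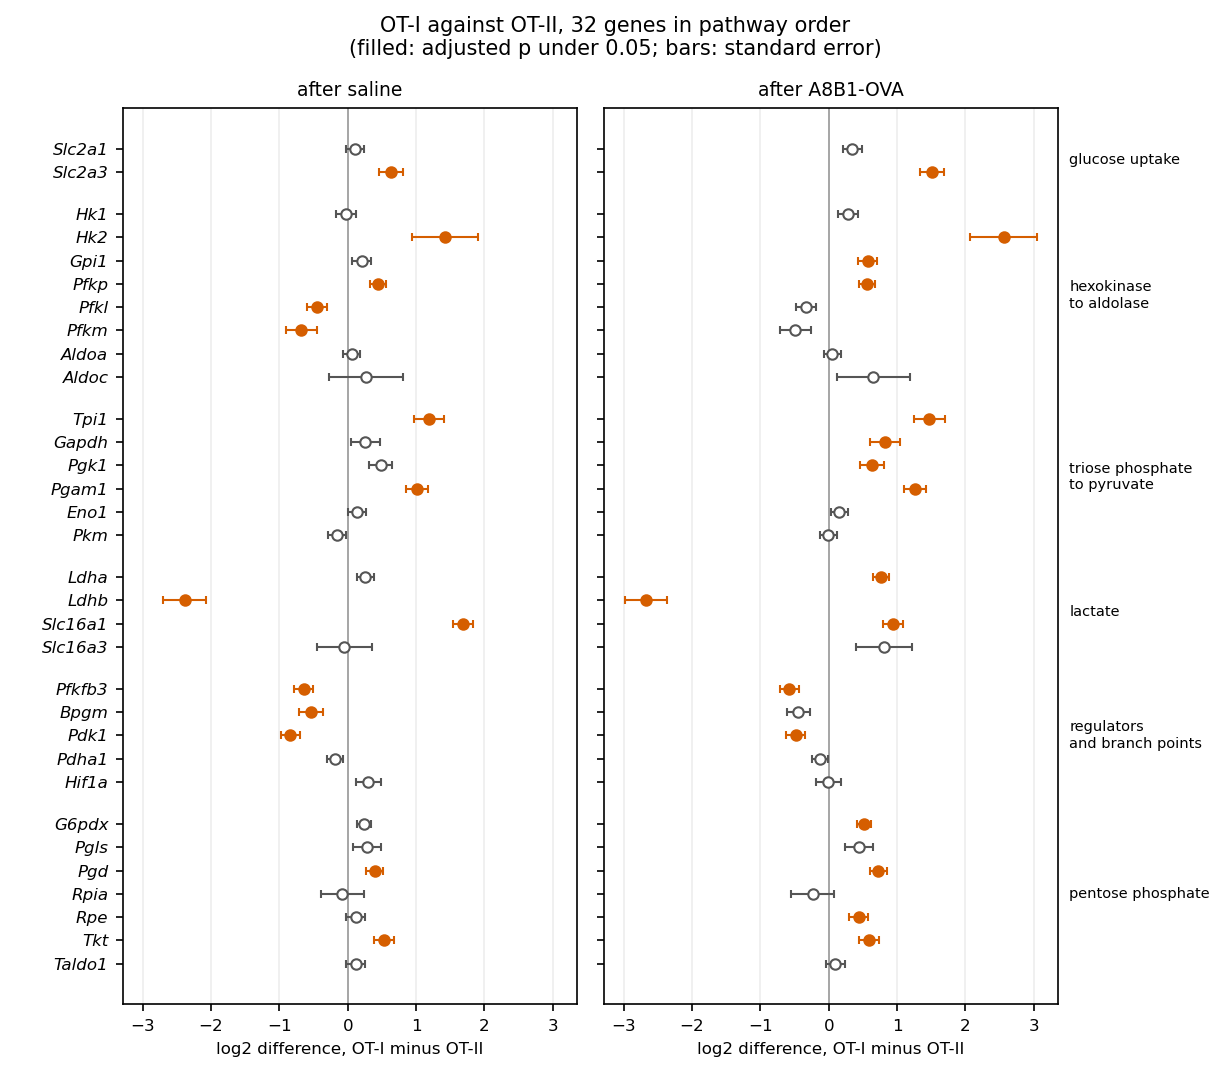
Log2 difference between OT-I and OT-II cells for each of the 32 genes after saline (left) and after A8B1-OVA (right), with bars for the standard error and filled points where the adjusted p was under 0.05. Ldhb lies farthest to the left in both panels, Slc16a1 farthest to the right after saline and Hk2 after A8B1-OVA.

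Several steps have more than 1 gene, and their balance is given as a ratio of CPM per kilobase in each library, without a test. Here too, lack of overlap is a description only. Slc2a1 and Slc2a3 were near balance in OT-I cells after saline, with ratios of 0.961, 1.27 and 1.13, and after molar-equivalent OVA, with 1.1, 0.905 and 1.36. They were at 0.791, 0.620 and 0.486 after A8B1-OVA and at 0.725, 0.610 and 0.586 after higher-dose OVA, so Slc2a3 led in every library of those groups, none of which overlapped with saline or molar-equivalent OVA. In OT-II cells Slc2a1 led in all 11 libraries, at 1.25 to 1.90. Within OT-II cells A8B1-OVA (1.35 to 1.41) lay just under saline (1.42 to 1.81) and higher-dose OVA (1.53 to 1.63), and molar-equivalent OVA (1.25 to 1.90) overlapped with all of them.

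Hk1 exceeded Hk2 in every library. In OT-I cells the ratio of Hk1 to Hk2 was 34.7, 31.9 and 56.8 after A8B1-OVA and 100.2, 85.5 and 110.3 after saline, without overlap. Replicate 3 of molar-equivalent OVA was also at 56.8, the value of A8B1-OVA replicate 3, and its other replicates were at 186 and 88.7. In OT-II cells it ran from 99.3 to 451 after A8B1-OVA and from 138 to 669 after saline, at Hk2 levels of at most 2.78 CPM. Pfkp to Pfkl, the platelet and liver types of phosphofructokinase, stood at 1.61, 1.70 and 1.91 in OT-I cells after saline. The ratio was 2.16, 2.35 and 3.12 after A8B1-OVA and 2.33, 3.47 and 3.70 after higher-dose OVA, both above saline without overlap, and 1.95, 1.70 and 2.18 after molar-equivalent OVA, which overlaps with saline and with A8B1-OVA. In OT-II cells it was 0.874, 1.02 and 0.935 after saline and from 1.13 to 1.71 in every library of the other groups. Ldha exceeded Ldhb 48.0 to 164 times in OT-I and 9.66 to 13.6 times in OT-II libraries. In OT-I the ratio was 124, 109 and 164 after A8B1-OVA and 59.4, 79.0 and 69.5 after saline, while higher-dose OVA spread from 48.0 to 160. The 48.0 and the highest Ldhb level of OT-I cells, 23.8 CPM, both belong to higher-dose replicate 1, the library with 198 CPM of CD4 markers, whose part in them was not tested. In OT-I cells Pfkl exceeded Pfkm 12.6, 13.5 and 8.4 times after A8B1-OVA and 16.7, 14.8 and 20.6 times after saline, without overlap, at Pfkm levels of at most 11.5 CPM. The ratios were 17.5, 12.4 and 14.6 after molar-equivalent and 15, 18.2 and 12.1 after higher-dose OVA, which overlap with both. For the remaining pairs A8B1-OVA and saline overlapped in OT-I cells: Slc16a1 exceeded Slc16a3 11.1 to 31.7 times and Aldoa exceeded Aldoc 249 to 1174 times over the 12 libraries.

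**Figure D5:**
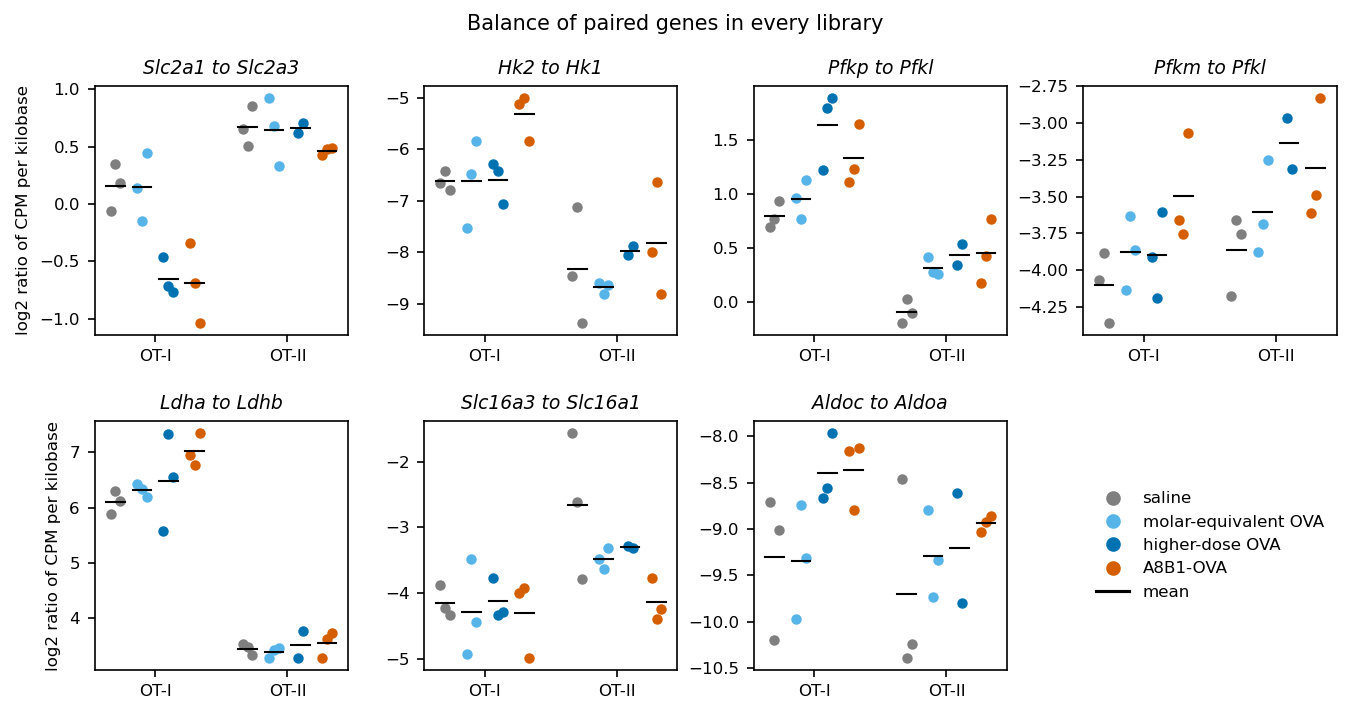
Log2 ratio of CPM per kilobase of paired genes in every library, coloured by treatment, with a line for the group mean and a vertical scale of its own in each panel. Slc2a1 to Slc2a3 lies under 0 in all OT-I libraries with A8B1-OVA or higher-dose OVA and above 0 in all OT-II libraries, and Ldha to Ldhb separates OT-I from OT-II libraries.

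The genes around these pathways were read from lists beside the 32. Of 38 other glycolysis and pyruvate genes tested in OT-I cells, 3 were higher and none lower after A8B1-OVA against saline, with a median of 0.05. In OT-II cells 2 of 39 were higher and 1 lower, with a median of -0.06. For these and the following lists, the shares over all genes were 7.07% higher and 4.43% lower in OT-I and 4.4% higher and 2.88% lower in OT-II, and a count near those shares is no result about a list. Pdk3, another pyruvate dehydrogenase kinase, rose in both, by 0.66 ± 0.13 in OT-I (adjusted p = 0.006) and 0.84 ± 0.14 in OT-II (0.0047). Pdk2 rose in OT-II by 0.66 ± 0.14 (adjusted p = 0.016). Thus in OT-II cells Pdk1 fell while Pdk2 and Pdk3 rose. From saline to A8B1-OVA the mean went from 418 to 297 CPM for Pdk1. It went from 18.2 to 28.5 CPM for Pdk2 and from 31.3 to 55.5 CPM for Pdk3. Whether the sum of the kinases changed was not tested. Galm, which interconverts the alpha and beta forms of galactose and glucose, rose in OT-I by 0.65 ± 0.14 (adjusted p = 0.0098). Pck2, a mitochondrial enzyme of glucose synthesis, fell by 0.66 in OT-II (standard error 0.14, adjusted p = 0.015).

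Of 11 other pentose phosphate and ribose genes, 1 was higher in each cell type and none lower, with medians of -0.12 in OT-I and -0.04 in OT-II. It was Dera, which handles deoxyribose phosphate, with 0.77 ± 0.17 in OT-I (adjusted p = 0.013) and 0.42 ± 0.10 in OT-II (0.026). The others named by the rule, Idnk (-0.41 and -0.30), Shpk (-0.37 and -0.17) and Prpsap1 (-0.19 and -0.04 in OT-I and OT-II), did not pass the test. Of 23 NADPH and antioxidant genes, 1 was higher and 2 lower in OT-I and 1 higher and 1 lower in OT-II, with medians of 0.05 and -0.10. Nfe2l2, the master regulator of the antioxidant response, fell in both, by 0.72 (standard error 0.13, adjusted p = 0.0041) and by 0.66 (0.09, 0.0014). Txn1, thioredoxin, rose by 1.04 ± 0.27 in OT-I (0.025), Idh2, which makes NADPH in mitochondria, fell there by 0.62 (0.15, 0.02), and Mthfd1, of the folate cycle, rose by 0.56 ± 0.13 in OT-II (0.026).

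Of 22 regulators of glycolysis, 1 was higher and 1 lower in each cell type, with medians of 0.06 in OT-I and -0.13 in OT-II. Irf4, a transcription factor induced through the T cell receptor, rose by 1.85 ± 0.19 in OT-I (adjusted p = 9.2e-05) and by 0.74 ± 0.20 in OT-II (0.043). Txnip, which restrains glucose uptake, was at 595, 429 and 641 CPM after A8B1-OVA and at 981, 1034 and 1007 CPM after saline in OT-II cells and fell by 0.85 on the log2 scale (standard error 0.16, adjusted p = 0.0082). In OT-I cells Txnip had -0.43 ± 0.17 (adjusted p = 0.13). Egln3, an oxygen sensor that marks Hif1a for destruction, fell by 0.97 in OT-I (0.26, 0.027), and Myc did not pass the test in OT-I (-0.06 ± 0.12, adjusted p = 0.80) or OT-II (0.35 ± 0.11, 0.076).

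Of 24 targets of HIF-1 outside glycolysis, 3 were higher and 2 lower in OT-I and none higher and 2 lower in OT-II, with medians of 0.05 and -0.09. Rora and Cited2, both transcriptional regulators, fell in both cell types, Rora by 1.07 and 0.84 and Cited2 by 0.99 and 0.79 in OT-I and OT-II. Anxa2, a membrane-binding protein, rose in OT-I by 1.60 ± 0.33 (adjusted p = 0.0077) and had -0.59 ± 0.27 in OT-II (0.23), and the difference of the 2 responses was 2.22 ± 0.47 (adjusted p = 0.035). Pdgfb, a growth factor, rose in OT-I by 2.15 ± 0.58 (0.03). Of the 12 cell cycle genes, 11 rose in OT-I and 6 in OT-II, with medians of 3.58 and 2.04. Mki67, a marker of dividing cells, had 3.98 ± 0.44 in OT-I (adjusted p = 0.00017) and 2.40 ± 0.76 in OT-II (0.08). The part of cell division in the changes of the 32 genes was not tested.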

How the data were processed

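Polyadenylated RNA of sorted OT-I and OT-II cells was turned into cDNA with the SmartSeq protocol, per the labels' protocols. The authors deposited 1 table of estimated counts per protein-coding gene, given as whole numbers and made with bcl2fastq and kallisto 0.46.1 on build GRCm38, per the submitters' processing notes. How transcripts were summed or values rounded is not given in the sources used here. Library totals ran from 26584040 to 73503642 counts, so a count of 0 allows 0.113 to 0.0408 CPM (3 counts). These limits cover counting error only, since reads carry no molecular identifiers. No libraries of a group agreed within sampling noise (chi-square per degree of freedom 35.2 to 257).

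The quasi-likelihood test of edgeR 4.0.16 (R 4.3.3) was run on each cell type alone and, for contrasts between cell types, on all 23 libraries, with TMM scaling, 1 coefficient per group and no block. Genes were kept by filterByExpr (minimum count 10, minimum total 15). Calls rest on p-values adjusted by Benjamini and Hochberg over every gene in the fit (threshold 0.05), in 19 comparisons. Log2 fold changes are given with standard errors. CPM use the TMM factors, and CPM per kilobase the median transcript length of GENCODE M21. The procedure was tested on simulated data. Alternatives were DESeq2 1.42.0, other scalings and filters, a replicate block, a fit of only the groups compared and leaving out libraries. The short-transcript covariate was chosen after seeing the data, and the 5 libraries with raised markers were known from earlier results.

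All 32 genes are named, with the value in every library for those called after A8B1-OVA against saline and for the main paired genes. From each other list up to 4 genes with the lowest p are named, and Txnip, Myc and Mki67 in any case. The genes and lists were chosen with earlier results of these data known. Shared sequence was measured in 31-base words over GENCODE M21 transcripts.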

Additional observations from a re-analysis of the deposited data

How the results depend on the processing

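The counts of the 32 genes called moved by over 1.5 times in several comparisons. DESeq2 called 9 in place of 4 for OT-I A8B1-OVA against higher-dose OVA, 3 in place of 1 for OT-I higher-dose OVA against saline, 3 in place of 0 for OT-I higher-dose against molar-equivalent OVA, 10 in place of 6 for OT-II A8B1-OVA against saline, 3 in place of 0 for OT-II A8B1-OVA against higher-dose OVA, and 1 in place of 0 for the difference of responses to A8B1-OVA against saline. For OT-I A8B1-OVA against molar-equivalent OVA (11 calls), upper-quartile scaling gave 7, the replicate block 7, the fit without the libraries with raised markers 5 and the fit of only the 2 groups 1. For OT-I A8B1-OVA against higher-dose OVA (4), the replicate block gave 2, the fit without those libraries 0, the short-transcript covariate 2 and the fit of only the 2 groups 2. For OT-I higher-dose OVA against saline (1) the fit without those libraries gave 0 and the covariate 3. The covariate gave 1 for OT-I higher-dose against molar-equivalent OVA and 2 for OT-II A8B1-OVA against higher-dose OVA (0 each), and OT-II A8B1-OVA against molar-equivalent OVA (7) gave 4 without those libraries. The cause was not tested.

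Leaving out 1 library gave 4 to 11 calls for OT-I A8B1-OVA against saline (10), 3 to 10 against molar-equivalent OVA, 0 to 10 against higher-dose OVA, 0 to 1 for OT-I higher-dose OVA against saline and against molar-equivalent OVA, 3 to 8 for OT-II A8B1-OVA against saline (6), 2 to 7 against molar-equivalent OVA (7), 0 to 1 against higher-dose OVA, and 8 to 12 for OT-I against OT-II after saline (14). The replicate numbers did not meet the rule for pairing the samples, a correlation over 0.1 in every pair: same-numbered libraries correlated at -0.48 to 0.33 within OT-I and -0.34 to 0.27 within OT-II. Between OT-I and OT-II libraries of the same treatment, same-numbered libraries had a median correlation of 0.25 (-0.14 to 0.59, 6 of 11 pairs over 0.1) and others one of -0.049. With the replicate block 9 genes were called for OT-I A8B1-OVA against saline and 6 for OT-II. No value of a single gene changed sign past the threshold: of the values of single genes under the alternatives, 8558 kept their side of it, 222 lost the call and 84 gained one. Leaving out 1 library where a group had 2 assumes that the lone library varies like the others. Depth limits the genes near the bottom of the range, such as Hk2 in OT-II cells and Aldoc.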
